A study of Mus musculus with 2 samples.

Results

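The platelet-derived growth factor (PDGF) family was followed through single nuclei of the mouse brain: the ligand genes Pdgfa, Pdgfb, Pdgfc and Pdgfd and the receptor genes Pdgfra and Pdgfrb. They were taken by symbol from the list of counted genes, and make up 6 of 27998. The data are 2 single-nucleus RNA sequencing (snRNA-seq) libraries of C57BL/6 mice harvested at day 28, each made from the frozen whole brains of 2 mice that were pooled. ShamRT-28d is the mock-irradiated library, labelled untreated, and WBRT-28d received whole-brain irradiation in 5 fractions of 2 Gy. With 1 library per group there is no replicate, so no test between the groups was made, and every interval given is a 95% interval of counting error only.

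PDGF ligands are secreted dimers that bind receptor tyrosine kinases on nearby cells. The alpha receptor binds chains A, B and C and is known as a mitogen receptor of oligodendrocyte precursor cells (OPCs) and of fibroblasts. The beta receptor binds chains B and D, and PDGF-B from endothelial cells holds pericytes, the mural cells of capillaries, to the vessel wall. Chains C and D are secreted in a latent form and become active after extracellular cleavage.

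The promoters of Pdgfra and Pdgfd are shown, the receptor gene and the ligand gene with the most UMIs (counted RNA molecules) over both libraries together, a count not scaled to gene span. Each sequence is the 250 bases ahead of the RefSeq start site (GRCm38.p6, plus strand, 5′ to 3′), at chr5:75152001-75152250 for Pdgfra and chr9:6168236-6168485 for Pdgfd. Capitals mark matches to 4 short motifs searched on both strands. Of 32851 promoter windows of this length, TATAAA was found in 12.4%, the motif ACAAT in 27.7%, the motif GGAATG in 12.6% and the motif CAGCTG in 13%.
Pdgfra: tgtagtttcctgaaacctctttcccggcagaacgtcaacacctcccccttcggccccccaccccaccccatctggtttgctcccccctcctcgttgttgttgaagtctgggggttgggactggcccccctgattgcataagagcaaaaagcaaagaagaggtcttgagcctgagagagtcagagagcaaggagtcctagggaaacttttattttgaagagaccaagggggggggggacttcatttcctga
Pdgfd: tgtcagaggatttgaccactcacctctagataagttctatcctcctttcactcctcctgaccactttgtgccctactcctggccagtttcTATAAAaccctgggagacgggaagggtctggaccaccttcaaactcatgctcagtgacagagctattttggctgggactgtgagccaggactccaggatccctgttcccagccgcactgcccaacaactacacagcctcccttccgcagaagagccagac
The Pdgfd window held 1 match to TATAAA and the Pdgfra window held none of the 4 motifs. GC content was 53.6% and 54.4%, beside a median of 52.4% over all windows. These matches describe the letters of the windows, and the counts of transcripts do not bear on them.

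After filtering, 10342 ShamRT-28d nuclei and 14043 WBRT-28d nuclei were kept, with medians of 2326 and 2491 unique molecular identifiers (UMIs) per nucleus. The libraries shared 43 cell barcodes. Clusters were named from marker genes that did not include the 6 members, and 164 and 519 nuclei stayed in unnamed clusters. A cluster of excitatory neurons led by Syt9 and Nwd2 held 135 ShamRT-28d nuclei and 2 WBRT-28d nuclei, and an inhibitory cluster led by Stac and Drd3 held 14 and 206, so the libraries did not sample the same mixture of neurons. Transcripts of other cells were more common in WBRT-28d: neuron transcripts in endothelial-like nuclei stood at 13.6% of the library mean in ShamRT-28d and 30.6% in WBRT-28d, and in astrocyte-like nuclei at 8.94% and 14.2%. Levels are UMIs of a gene scaled to the total UMIs of the class (CPM), and levels of different genes are compared only per kilobase of gene span, because the reference also counts intron reads.

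Over all kept nuclei, Pdgfa was counted with 790 UMIs in ShamRT-28d and 1060 in WBRT-28d, Pdgfb with 526 and 1037, and Pdgfc with 1853 and 2263. Pdgfd had 1583 and 3813 UMIs, Pdgfra 1925 and 3106, and Pdgfrb 937 and 1875. These whole-library sums move with the mixture of nuclei, as WBRT-28d held 3.8% endothelial-like nuclei against 2.20% in ShamRT-28d, 2.50% mural-like nuclei against 1.23%, and 5.34% OPC-like nuclei against 3.53%. Pdgfa and Pdgfc were highest in choroid plexus-like nuclei, and Pdgfb and Pdgfd in endothelial-like nuclei. Pdgfra was highest in OPC-like and Pdgfrb in mural-like nuclei. The plot of levels by class shows these leading classes in both libraries.

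**Figure D1:**
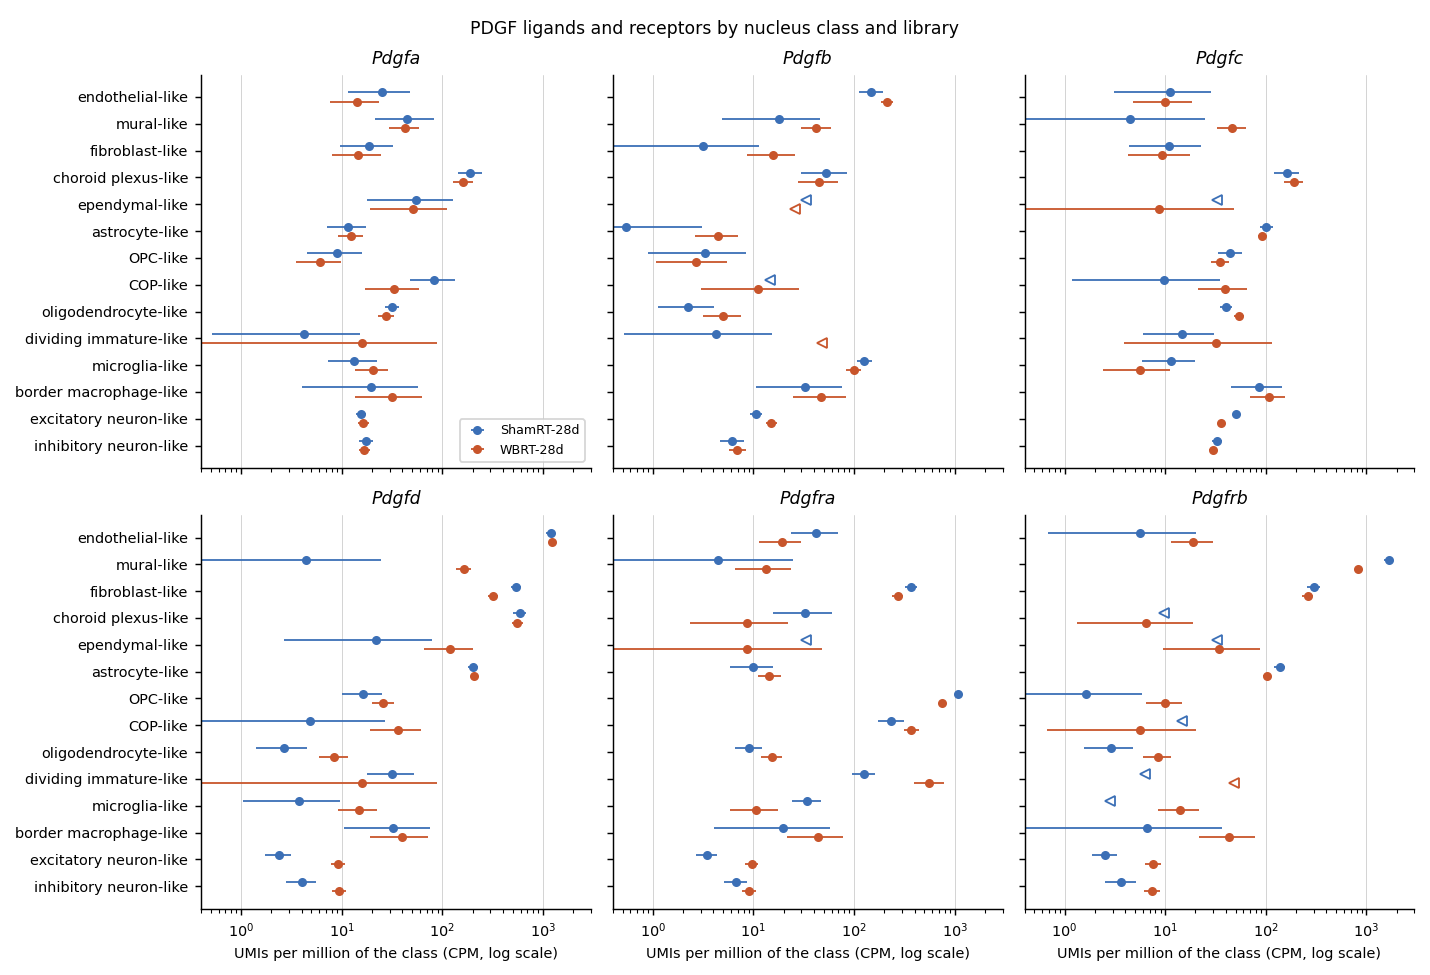
Levels of the 6 genes in 14 nucleus classes (CPM on a log scale, points with exact Poisson intervals of counting error), ShamRT-28d in blue and WBRT-28d in orange. Open triangles mark the limit of 3 counts where no UMI was found. Pdgfd was highest in endothelial-like, Pdgfra in OPC-like and Pdgfrb in mural-like nuclei in both libraries.

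Pdgfa (chr5:138976014-138997370, minus strand, GRCm38) encodes the chain that signals through the alpha receptor alone. Its highest level was in choroid plexus-like nuclei, the epithelium that makes cerebrospinal fluid, with 190 CPM (144 to 246) in ShamRT-28d and 161 (127 to 202) in WBRT-28d. The WBRT-28d to ShamRT-28d ratio was 0.849 (0.595 to 1.22), an interval that holds 1. Pdgfa was found in 34 of 54 and 50 of 98 of these nuclei. Mural-like nuclei, the next class where both libraries held 50 nuclei or more, had 44.6 and 42.3 CPM, and its interval overlapped that of oligodendrocyte-like nuclei, at 31.8 and 27.7 CPM.

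In the oligodendrocyte lineage the level of Pdgfa differed between classes. OPC-like nuclei had 8.99 and 6.10 CPM in ShamRT-28d and WBRT-28d, and free RNA alone would leave 3.10 and 4.42 CPM. This estimate takes free RNA from the share of the library mean at which transcripts of another cell type were found in the class. The COP-like class, named after committed oligodendrocyte precursors (COPs), which have begun to differentiate, had 17 and 12 UMIs. That was 82.9 CPM (48.3 to 133) in ShamRT-28d and 33.4 (17.2 to 58.3) in WBRT-28d. The class was mixed, and 26 of its 102 nuclei passed as COP-like when each nucleus was judged by its own markers. When OPC, COP and dividing nuclei were clustered again, a cluster led by Enpp6 and Cnksr3 had 71.4 CPM of Pdgfa (46.2 to 105) and 22.9 of Pdgfra (9.87 to 45.0), over 77 nuclei of both libraries. It held 49 of the COP-like nuclei, and its COP markers summed to 8380 CPM. The other 53 lay in a cluster with oligodendrocyte genes such as Prr5l, of 15 ShamRT-28d and 49 WBRT-28d nuclei. That cluster had 9.43 CPM of Pdgfa (2.57 to 24.2) and COP markers at 1321 CPM. The part of this mixture in the Pdgfa difference of the COP-like class was not tested. The large OPC clusters had less Pdgfa than the Enpp6 cluster, 4.04 and 10.3 CPM, and more Pdgfra, 920 and 854 CPM. The class with the most Pdgfa UMIs was excitatory neuron-like nuclei, with 308 and 284 at 15.5 and 16.5 CPM (ratio 1.06, 0.901 to 1.25).

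Pdgfb (chr15:79995874-80014977, minus strand) encodes the chain that recruits pericytes. It led in endothelial-like nuclei with 149 CPM (112 to 195) in ShamRT-28d and 212 (184 to 243) in WBRT-28d, a ratio of 1.42 (1.05 to 1.96). It was found in 47 of 228 and 160 of 533 of these nuclei, and in 14.4% and 18.6% after each nucleus was thinned to 1000 UMIs. The 10 endothelial markers, such as Flt1 and Cldn5, all had ratios under 1 in the same nuclei, from 0.746 to 0.943. When the vascular nuclei were clustered again, Pdgfb stood at 233 CPM (197 to 273) in the cluster led by Ddc and Slco1c1, at 199 (143 to 270) in that led by Gkn3 and Bmx, and at 140 (97.2 to 194) in that with Vwf and Il1r1. Without second-round clusters rich in transcripts of other classes, an alternative chosen after seeing the data, the ratio was 1.54 (1.12 to 2.15), past the fold of 1.5. With doublets kept it was 1.26 (0.944 to 1.69), an interval that holds 1, and the ratio of the thinned shares was 1.29.

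Microglia-like nuclei had the next level of Pdgfb, 127 CPM (106 to 150) in ShamRT-28d and 99.6 (83.9 to 117) in WBRT-28d, with a ratio of 0.788 (0.617 to 1.01). These immune cells carried 25.3% of the Pdgfb UMIs of ShamRT-28d and 13.7% of those of WBRT-28d. Excitatory neuron-like nuclei held more UMIs in all, 211 and 260, at low levels of 10.6 and 15.1 CPM (ratio 1.42, 1.18 to 1.71). In this class free RNA alone would leave 1.6 and 4.02 CPM. Astrocyte-like nuclei were nearly free of it, with 1 UMI over 684 nuclei in ShamRT-28d and 18 over 1383 in WBRT-28d.

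Pdgfc (chr3:81036416-81214040, plus strand) encodes a latent ligand of the alpha receptor. Choroid plexus-like nuclei had the highest level, 164 CPM (122 to 216) in ShamRT-28d and 189 (152 to 233) in WBRT-28d (ratio 1.16, 0.808 to 1.67). Border macrophage-like nuclei at 85.0 and 107 CPM and astrocyte-like nuclei at 101 and 92.5 followed with overlapping intervals. Oligodendrocyte-like nuclei had 40.2 CPM in ShamRT-28d and 54.3 in WBRT-28d, a ratio of 1.35 (1.12 to 1.64). Endothelial-like, fibroblast-like and microglia-like nuclei had between 5.61 and 11.4 CPM in either library, where free RNA alone would leave at least 42.5% of the level.

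Excitatory neuron-like nuclei held more Pdgfc UMIs than any other single class, 1015 and 625, and the level went from 51.1 CPM (48.0 to 54.4) to 36.3 (33.5 to 39.2). The ratio was 0.709 (0.641 to 0.784), but the share of nuclei with a UMI after thinning was nearly level, 3.8% and 3.59%. The neuron clusters differed among themselves. In the cluster led by Igfn1 and Clec18a, Pdgfc went from 123 to 62.9 CPM (ratio 0.512, 0.408 to 0.639), and in that led by AI481877 and Rspo2 from 63.3 to 32.8 (0.518, 0.382 to 0.693). In the larger cluster led by Fam19a1 and Igfn1, whose nuclei were shallower (median of 1701 UMIs, against 5974 in the Igfn1 and Clec18a cluster), it stood at 51.7 and 56.5 CPM, and both clusters together gave a ratio of 0.737 (0.638 to 0.851). The shallow cluster led by Hs3st4 and Cdh18 (median of 1690 UMIs) went from 26.3 to 66.7 CPM (2.54, 1.25 to 5.66) and the deep one led by Hs3st4 and Tmem178 (median of 8490) from 40.8 to 30.5 (0.748, 0.518 to 1.06), and both together gave 1.07 (0.814 to 1.39). These joined clusters were chosen after seeing the data. The neurons led by Syt9 and Nwd2, nearly absent from WBRT-28d, had 105 CPM of Pdgfc in ShamRT-28d, and without them the class ratio was 0.737 (0.665 to 0.817). In the plot of Pdgfc by neuron cluster, clusters therefore differ in depth as well as in kind of neuron, and the part of depth in the differences between them was not tested.

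**Figure D2:**
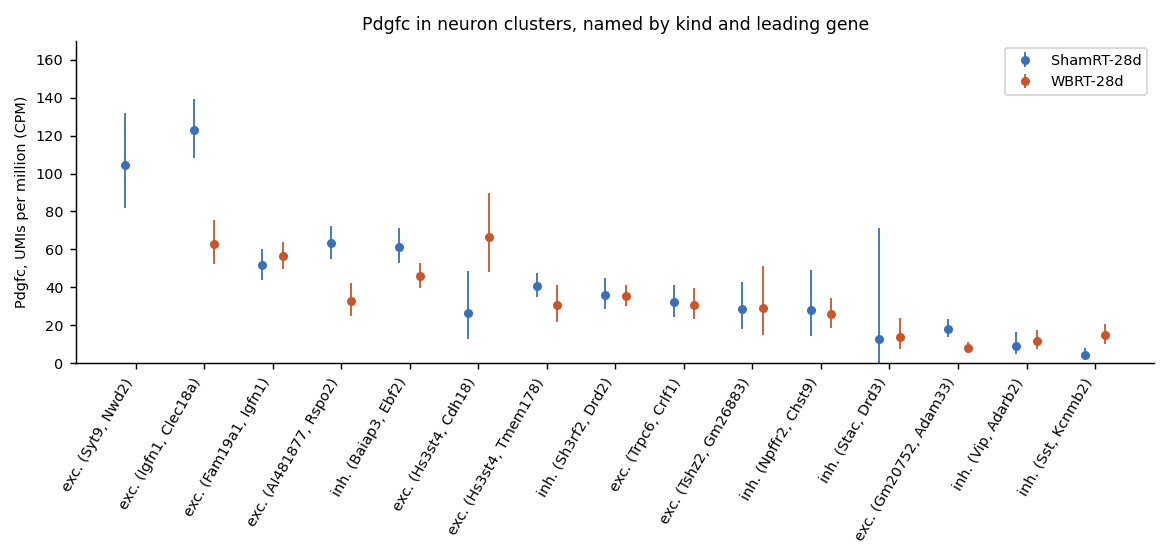
Pdgfc in neuron clusters of at least 100 nuclei (CPM with exact Poisson intervals), named by kind and leading genes and ordered by level, ShamRT-28d in blue and WBRT-28d in orange. A library with under 10 nuclei in a cluster is not drawn. The Igfn1, Clec18a and the AI481877, Rspo2 clusters had lower levels in WBRT-28d, and the Hs3st4, Cdh18 and Sst, Kcnmb2 clusters had higher ones. The Hs3st4, Cdh18 cluster, joined with the deeper Hs3st4 cluster, had a ratio of 1.07 (0.814 to 1.39).

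Pdgfd (chr9:6168584-6378850, plus strand) encodes a latent ligand of the beta receptor. Endothelial-like nuclei had 1197 CPM (1086 to 1316) in ShamRT-28d and 1225 (1157 to 1296) in WBRT-28d. The ratio was 1.02 (0.916 to 1.15). Pdgfd was found in 60.1% and 71.3% of these nuclei, and in 54.5% and 57.9% after thinning. It was highest in the cluster led by Gkn3, Bmx and Eln, genes of arterial endothelium, at 1702 CPM (1529 to 1890), then 1321 (1233 to 1413) in that led by Ddc and Slco1c1 and 789 (683 to 907) in that with Vwf. These 3 intervals did not overlap. Pdgfb and Pdgfd were found together in 119 of the 160 WBRT-28d endothelial-like nuclei with Pdgfb, and in 30 of 47 in ShamRT-28d.

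Choroid plexus-like nuclei were second, at 587 CPM (504 to 679) and 558 (492 to 630), a ratio of 0.95 (0.782 to 1.16). Fibroblast-like nuclei, which line the meninges and larger vessels, came next and differed between the libraries, with 543 CPM (487 to 603) in ShamRT-28d and 323 (288 to 360) in WBRT-28d. That ratio of 0.595 (0.508 to 0.695) passed the fold of 1.5, and the 10 fibroblast markers had a median ratio of 0.823, from 0.530 to 1.02. When each of the 625 nuclei of this class was judged by its own markers, 108 passed as fibroblast-like. Another 433 were left without a class and 30 passed as astrocyte-like. Within the fibroblasts, the cluster led by Ankrd55 and Slc22a2 went from 726 to 366 CPM (0.504, 0.406 to 0.625) and that led by Rspo2 from 485 to 304 (0.627, 0.445 to 0.882), while that led by Moxd1 and Tgfbi stood at 796 and 659 CPM (0.828, 0.570 to 1.2). An unnamed cluster with Slc47a1 and Adamtsl3 went the other way, from 521 to 906 CPM (1.74, 1.27 to 2.41).

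Astrocyte-like nuclei had 202 CPM (182 to 224) and 208 (194 to 222) of Pdgfd. Within them the level varied more than between the libraries. The cluster led by Myoc, with Gfap among its genes, had 685 CPM (625 to 749) over both libraries, and the cluster led by Car8 and Unc13c had 54.0 (39.1 to 72.7). In the Myoc cluster Pdgfd went from 843 CPM in ShamRT-28d to 602 in WBRT-28d (0.714, 0.593 to 0.860), but in the broader first-round cluster led by Myoc and Gfap it stood at 379 and 364 CPM (0.960, 0.804 to 1.15). Other second-round clusters went the other way, the Car8 cluster from 36.5 to 72.7 CPM (1.99, 1.03 to 4.01) and that led by Gm29260 and Adamts18 from 49.4 to 171 (3.45, 1.73 to 7.03), each on under 50 UMIs. The difference in the Myoc cluster thus depended on how the astrocytes were divided.

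Pdgfra (chr5:75152292-75198215, plus strand) encodes the alpha receptor. OPC-like nuclei had 1075 CPM (1018 to 1135) in ShamRT-28d and 741 (709 to 775) in WBRT-28d. They held 68.4% and 62.6% of all Pdgfra UMIs. The ratio was 0.689 (0.642 to 0.740), just inside the fold of 1.5. Pdgfra was found in 294 of 365 and 580 of 750 of these nuclei, and after thinning in 59.7% and 46.9%. The 10 OPC markers had a median ratio of 0.943, and Vcan, a proteoglycan gene, was the only marker with a lower ratio than Pdgfra, at 0.669 (0.628 to 0.713), while Cspg4 had 1.15 (1.03 to 1.28). The neuron markers in these nuclei summed to 2525 CPM in ShamRT-28d and 3257 in WBRT-28d, and the part these transcripts had in the difference was not tested.

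The lower Pdgfra level was found in both large OPC clusters of the second round. In that led by Pcdhb9, with Tnc and Bmp7, it went from 1145 to 798 CPM (0.697, 0.638 to 0.761), and in the other, with Bhlhe41, from 1098 to 726 (0.661, 0.575 to 0.760). The part that mixture and depth had in the difference was not tested. A small cluster with Chrm3 and Grin2a, of 10 and 61 nuclei, had a higher level in WBRT-28d, 334 and 642 CPM (1.92, 1.13 to 3.50). A cluster of dividing nuclei led by Top2a also had a higher level in WBRT-28d, 447 and 813 CPM (1.82, 1.27 to 2.59) over 44 and 18 nuclei. It was mixed, with 47 dividing immature-like and 15 OPC-like nuclei, and Pdgfra was found in 24 of the 62. Immature neuron markers summed to 687 CPM in it, beside 139 and 165 in the large OPC clusters. The part of this mixture in the ratio was not tested. The cluster of immature neurons led by Dlx6os1, with Igfbpl1, had no Pdgfra UMI over 91 nuclei, of which 89 were of ShamRT-28d, which allows up to 12 CPM. COP-like nuclei had 234 CPM in ShamRT-28d and 373 in WBRT-28d (1.59, 1.14 to 2.26). In these nuclei the COP markers had a median ratio of 0.644 and the OPC markers of 1.6. In the second round they joined the Enpp6 cluster, where Pdgfra stood at 22.9 CPM, and a cluster with oligodendrocyte genes such as Prr5l, where it stood at 519 (453 to 592) and which held 15 ShamRT-28d nuclei and 49 WBRT-28d nuclei.

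Fibroblast-like nuclei were the second class for Pdgfra, with 371 CPM (325 to 421) in ShamRT-28d and 272 (240 to 307) in WBRT-28d (ratio 0.733, 0.612 to 0.877). The level was highest in the cluster with Col15a1 and Lum, at 662 CPM (577 to 755), where Pdgfd was lowest, at 90.7 (61.2 to 129). Among the other fibroblast clusters that led by Moxd1 and Tgfbi had 446 CPM of Pdgfra and 725 of Pdgfd, so a high level of one gene did not go with a low level of the other in every cluster. The unnamed cluster with Slc47a1 had 17.1 CPM of Pdgfra and 770 of Pdgfd. In the Col15a1 and Lum cluster Pdgfra went from 998 CPM to 489 (0.490, 0.373 to 0.645). The cluster led by Ankrd55 and Slc22a2 went from 300 to 186 CPM (0.621, 0.450 to 0.857). The Moxd1 and Tgfbi cluster went the other way, from 306 to 578 CPM (1.89, 1.15 to 3.18). The Rspo2 cluster had 80.9 and 106 CPM on 36 UMIs (1.31, 0.637 to 2.82). Among classes where both libraries held 50 nuclei or more, no other one lay above 43.5 CPM in either library. Microglia-like nuclei had 36 UMIs of Pdgfra in ShamRT-28d and 15 in WBRT-28d (0.307, 0.156 to 0.576), found in 16 and 14 nuclei, where free RNA alone would leave 5.73 and 16.1 CPM.

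**Figure D3:**
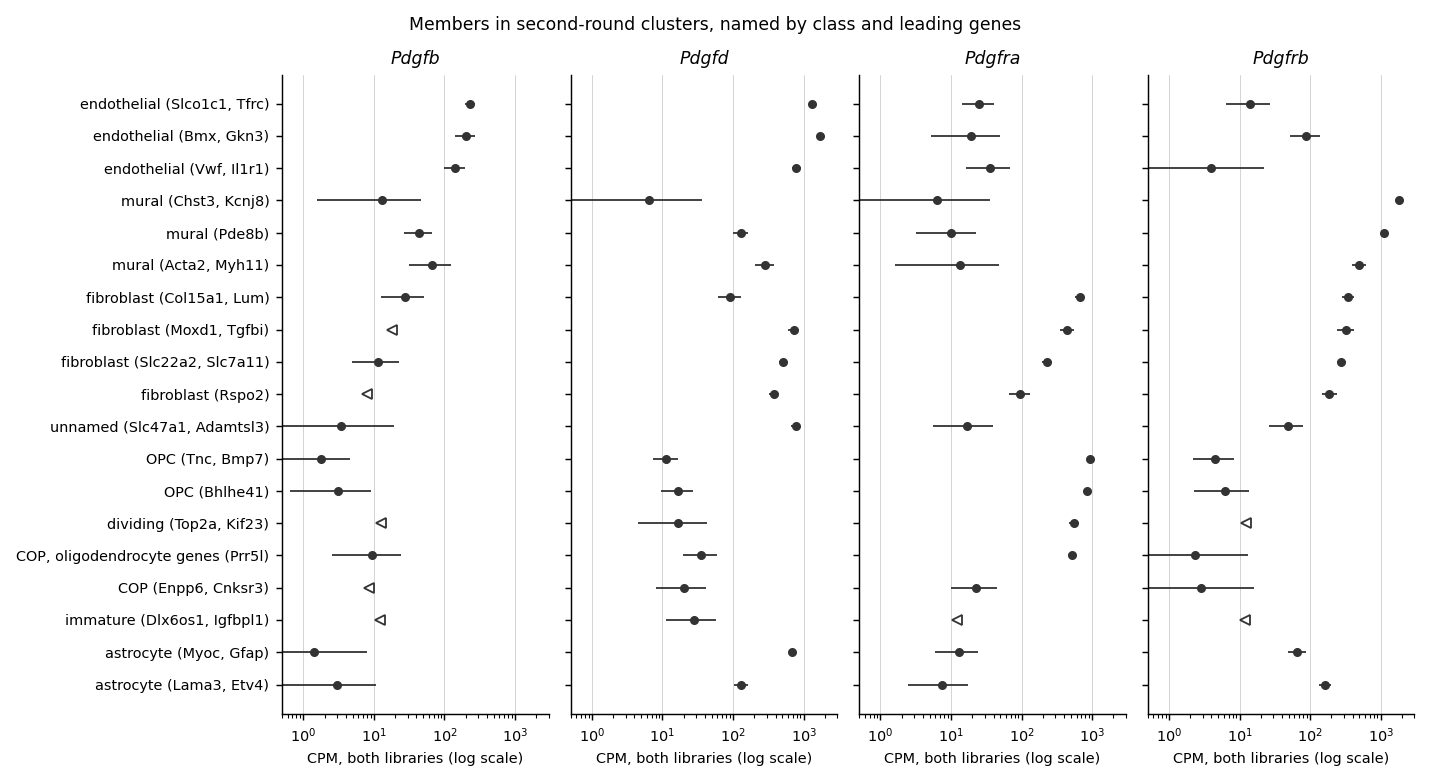
Levels of Pdgfb, Pdgfd, Pdgfra and Pdgfrb in second-round clusters, UMIs of both libraries together (CPM on a log scale, exact Poisson intervals, open triangles at the limit of 3 counts where no UMI was found). The Col15a1, Lum fibroblast cluster had the highest Pdgfra and the lowest Pdgfd of the fibroblast clusters, the Moxd1, Tgfbi cluster had high levels of both, and Pdgfrb was higher in the Kcnj8 than in the Acta2 mural cluster.

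Pdgfrb (chr18:61045150-61085061, plus strand) encodes the beta receptor. Mural-like nuclei had 1663 CPM (1499 to 1841) in ShamRT-28d and 833 (772 to 897) in WBRT-28d, from 373 and 689 UMIs. The ratio of 0.501 (0.441 to 0.569) was the lowest of any gene in its leading class. Pdgfrb was found in 110 of 127 and 266 of 351 of these nuclei, and after thinning in 77.7% and 55.5%. Of the 7 other mural markers that are not smooth muscle genes, 6 had ratios under 1 in the same nuclei: 0.395 for Kcnj8, 0.461 for Vtn, 0.553 for Abcc9, 0.567 for Atp13a5, 0.662 for Notch3 and 0.768 for Higd1b. Rgs5 had 1.14 (0.960 to 1.36), and the smooth muscle genes Acta2, Tagln and Myh11 had ratios of 6.63, 8.88 and 5.13.

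The second-round clusters of mural nuclei were filled unequally by the libraries. A different mixture of mural nuclei and a shift between the libraries cannot be told apart here, and their part in the Pdgfrb level was not tested. The second-round cluster led by Chst3 and Kcnj8 held 85 ShamRT-28d nuclei and 8 WBRT-28d nuclei and had 1826 CPM (1620 to 2051) of Pdgfrb. The cluster led by Pde8b held 27 and 236 and had 1118 CPM (1028 to 1214), and the smooth muscle cluster led by Acta2 held 9 and 46 and had 497 (391 to 623). Over the first and second of these, the pericyte clusters, the level went from 1787 to 1086 CPM (0.608, 0.529 to 0.699), and the 5 pericyte markers had a median ratio of 0.715, from 0.482 to 1.15. The level was also lower in WBRT-28d within each of the 3 clusters. It went from 1401 to 1089 CPM (0.777, 0.601 to 1.02) in the Pde8b cluster, from 1916 to 990 (0.517, 0.285 to 0.867) in the Chst3 and Kcnj8 cluster, where WBRT-28d had 15 UMIs, and from 1464 to 395 (0.270, 0.160 to 0.471) in the Acta2 cluster, where ShamRT-28d had 21. Endothelial markers summed to 1115 CPM in ShamRT-28d mural-like nuclei and to 2413 in WBRT-28d ones, and oligodendrocyte markers to 1529 and 3045.

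Pdgfd in mural-like nuclei went from 1 UMI in ShamRT-28d to 136 in WBRT-28d, or 4.46 to 164 CPM. The ratio of 36.9 rests on that 1 UMI, and its interval ran from 6.50 to 1466. Pdgfb went from 4 to 35 UMIs (2.37, 0.848 to 9.19) and Pdgfc from 1 to 38 in the same nuclei. Of the 10 endothelial markers 9 were measured there, and 8 were past the fold and higher in WBRT-28d. Over both libraries the Acta2 cluster had 285 CPM of Pdgfd (206 to 384), with endothelial markers summing to 1656 CPM. The Pde8b cluster had 128 CPM of Pdgfd (98.7 to 163), with endothelial markers at 2653 CPM. Whether the Pdgfd, Pdgfb and Pdgfc UMIs came from the mural cells was not tested.

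Fibroblast-like nuclei had 300 CPM (259 to 346) of Pdgfrb in ShamRT-28d and 260 (229 to 294) in WBRT-28d, a ratio of 0.866 (0.715 to 1.05). Pdgfra and Pdgfrb were found together in 63 of 247 and 68 of 378 of these nuclei. Astrocyte-like nuclei came next with 137 CPM (121 to 155) and 103 (93.5 to 113), a ratio of 0.750 (0.640 to 0.881). Here free RNA alone would leave 2.05 and 4.69 CPM. The cluster of astrocytes led by Myoc and Gfap in the first round had 131 and 44.8 CPM (0.343, 0.227 to 0.512), and the main cluster 140 and 119 (0.851, 0.711 to 1.02). In the second-round Myoc cluster Pdgfrb stood at 83.0 and 56.7 CPM (0.683, 0.366 to 1.29), an interval that holds 1. The second-round cluster led by Gm29260 and Adamts18 had 167 and 31.0 CPM (0.186, 0.0489 to 0.504), and that led by Lama3 had 151 and 200.1 CPM (1.32, 0.864 to 1.99).

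**Figure D4:**
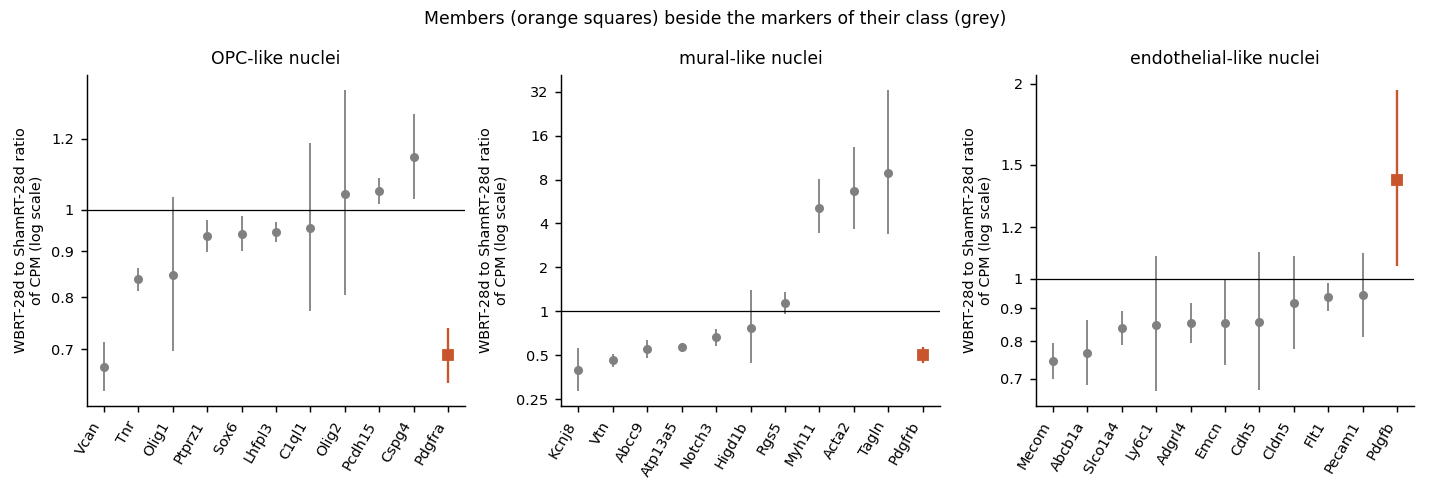
WBRT-28d to ShamRT-28d ratios (log scale, conditional binomial intervals) of Pdgfra, Pdgfrb and Pdgfb as orange squares beside the markers of their class in grey. Pdgfra lay below 9 of the 10 OPC markers, Pdgfrb lay among the pericyte markers and far below the smooth muscle markers, and Pdgfb lay above all 10 endothelial markers.

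Per kilobase of gene span, Pdgfrb in mural-like nuclei had the highest level of the family, 41.7 CPM per kb in ShamRT-28d and 20.9 in WBRT-28d. Pdgfra in OPC-like nuclei had 23.4 and 16.1. In endothelial-like nuclei Pdgfb, at 7.81 and 11.1 CPM per kb, stood above Pdgfd, at 5.69 and 5.83, although its CPM was lower, since Pdgfd spans 210 kb and Pdgfb 19.1 kb. In choroid plexus-like nuclei Pdgfa had 8.90 and 7.56 CPM per kb, against 2.79 and 2.65 for Pdgfd. Fibroblast-like nuclei had 8.07 and 5.91 of Pdgfra and 7.52 and 6.52 of Pdgfrb.

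Ratios were called past the fold at 1.5 times either way where a class had at least 50 UMIs of the gene. In mural-like nuclei both measured members passed, Pdgfrb lower and Pdgfd higher, where 30.2% of all genes did. In fibroblast-like nuclei 1 of 3 passed (Pdgfd), beside 14.2% of all genes, and in OPC-like nuclei 1 of 3 (Pdgfd, 16.3 to 25.9 CPM), beside 12%. The ratio of Pdgfd in OPC-like nuclei, 1.59 (0.952 to 2.76), has an interval that holds 1. Without second-round clusters rich in transcripts of other classes it was 1.3 (0.644 to 2.80). That ratio rests on 12 and 29 UMIs, under the 50 needed for a call. The 1 member measured in COP-like nuclei passed (Pdgfra), beside 31.2% of genes. In dividing immature-like nuclei Pdgfra, the 1 measured member, passed with 125 and 562 CPM (4.49, 2.87 to 6.94), beside 48.4% of genes, over 135 ShamRT-28d nuclei and 13 WBRT-28d nuclei. Of these, 89 and 2 lay in the cluster of immature neurons, which had no Pdgfra UMI. In the second-round Top2a cluster the ratio was 1.82 (1.27 to 2.59). None of 5 passed in astrocyte-like nuclei, none of 3 in choroid plexus-like nuclei and none of 2 in endothelial-like nuclei, where 14.9%, 19.2% and 20.8% of all genes did. In microglia-like nuclei 1 of 2 passed (Pdgfra), beside 18.7%.

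In neurons and oligodendrocytes the members past the fold were low and higher in WBRT-28d. These were 3 of 6 in excitatory neuron-like nuclei (Pdgfd, Pdgfra and Pdgfrb), beside 13.2% of all genes, 2 of 6 in inhibitory neuron-like nuclei (Pdgfd and Pdgfrb), beside 12.4%, and 3 of 5 in oligodendrocyte-like nuclei (Pdgfd, Pdgfra and Pdgfrb), beside 17.8%. In excitatory neuron-like nuclei Pdgfd had 2.37 and 9.22 CPM, Pdgfra 3.43 and 9.63, and Pdgfrb 2.52 and 7.60. Free RNA alone would leave as much or nearly as much of each, for instance 4.83 and 14.8 CPM of Pdgfd and 2.86 and 7.27 of Pdgfrb. In oligodendrocyte-like nuclei it would leave between 49.2% and 178% of the levels of these genes. The part of free RNA in these ratios was not tested.

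**Figure D5:**
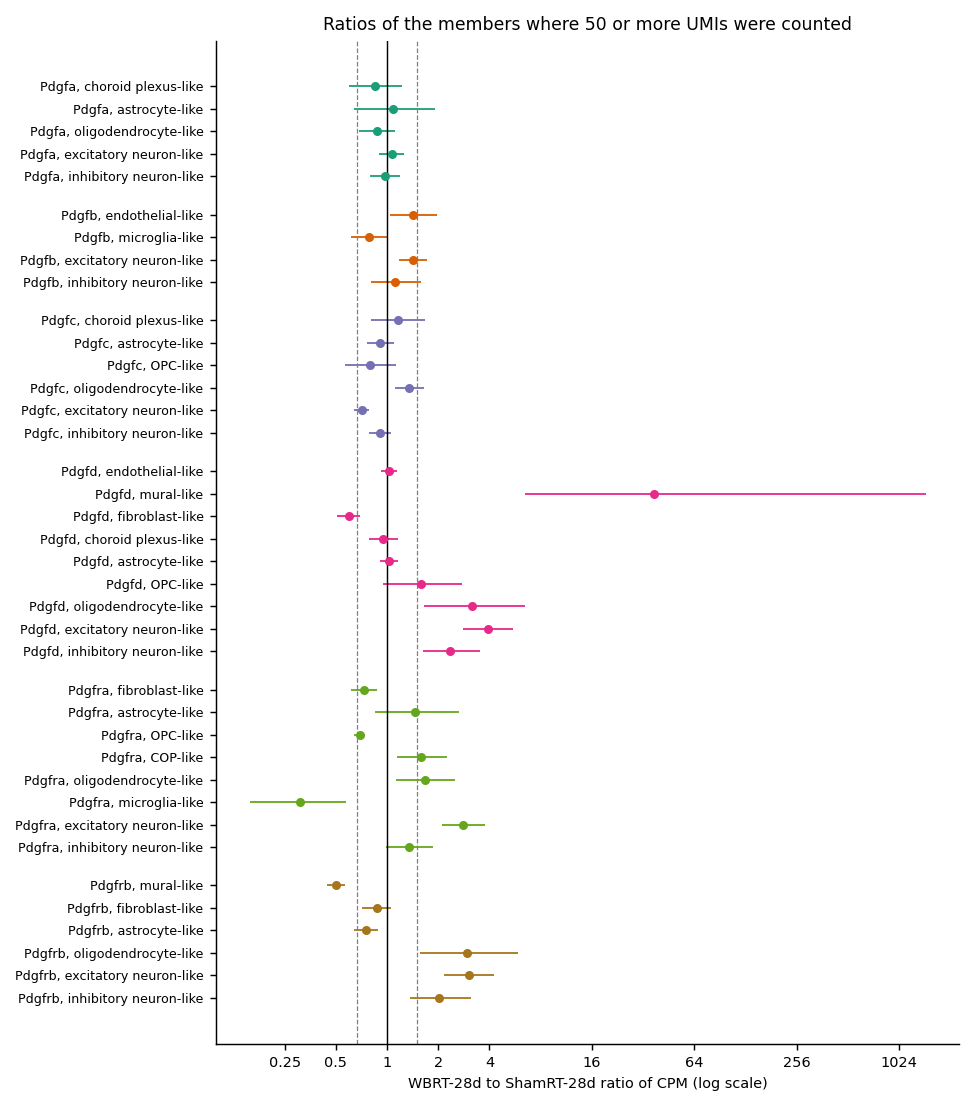
WBRT-28d to ShamRT-28d ratios of CPM (log scale) with conditional binomial intervals, for genes and classes with at least 50 UMIs over both libraries. Dividing immature-like nuclei, where Pdgfra had a ratio of 4.49, were left out. Dashed lines mark 1.5-fold in either direction, and the ratio of Pdgfd in mural-like nuclei rests on 1 UMI in ShamRT-28d.

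The genes around the family were read from fixed lists. Of 25 receptor adaptors and effectors, 23 had at least 50 UMIs in OPC-like nuclei, where none was higher past the fold and 1 was lower, beside 6.53% and 5.43% of all genes. The lower gene was Acp1, a phosphatase, with 161 CPM in ShamRT-28d and 72.1 in WBRT-28d (0.448, 0.365 to 0.550). Its level also went from 103 to 62.4 CPM in excitatory neuron-like nuclei. All 25 were measured there, 1 higher and 1 lower, beside 6.14% and 7.09% of all genes. In endothelial-like nuclei, where 13.5% of all genes were higher and 7.34% lower, 22 were measured, 0 higher and 1 lower. That was Sos1, the exchange factor that activates Ras, with 307 and 167 CPM (0.543, 0.424 to 0.699). In mural-like nuclei 1 of 20 was higher (Ptprj, a receptor phosphatase, 84.7 and 174 CPM) and 2 were lower (Nck2 and Yes1, named after their values were seen), beside 21.5% and 8.65% of all genes. The median log2 ratio of the list was 0.04 in OPC-like, -0.11 in endothelial-like and 0.02 in mural-like nuclei, where the medians of all genes were 0.02, 0.00 and 0.09. Gab1, a docking protein, had 283 and 250 CPM in OPC-like nuclei, and was the gene that was higher in excitatory neuron-like nuclei. It went from 17.4 to 28.3 CPM there (1.62, 1.41 to 1.87).

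Of 12 genes for ligand processing and co-receptors, 7 were measured in OPC-like nuclei with 2 higher (Nrp1 and Sparc), 6 in endothelial-like nuclei with 1 higher (Lrp1) and 2 lower (Plat and Pcsk5), and 5 in mural-like nuclei with 2 higher (Nrp1 and Pcsk7), to be read beside the same shares of all genes. The Nrp1 ratio in OPC-like nuclei, 1.6, has a lower bound of 0.906, so its interval holds 1. Plat, the protease that activates PDGF-C, had 152 and 72.3 CPM in endothelial-like nuclei (0.476, 0.330 to 0.690). Plat and the Pcsk genes were named after their values were seen. Sparc, whose matrix protein binds PDGF-B, went from 10.6 to 29.4 CPM in OPC-like nuclei and stood at 194 and 191 in endothelial-like nuclei. It also went from 7.96 to 18.0 CPM in excitatory neuron-like nuclei (2.26, 1.86 to 2.75). In that class 9 genes of the list were measured, 2 higher and 1 lower. Lrp1, a large endocytic receptor, had 16.9 and 48.2 CPM in endothelial-like nuclei (2.85, 1.22 to 8.16). Sulf1, a sulfatase of heparan sulfate, had 2262 and 2052 CPM in choroid plexus-like nuclei, and went from 64.5 to 26.0 CPM in excitatory neuron-like nuclei (0.403, 0.361 to 0.449). Of 7 other receptor kinases and ligands of the same class, 2 were measured in endothelial-like nuclei and 0 passed the fold. Kitl, the ligand of Kit, had 960 and 689 CPM there (0.718, 0.630 to 0.820). In mural-like nuclei 2 were measured, 1 higher and 1 lower, beside 21.5% and 8.65% of all genes. Kitl had 75.8 and 174 CPM there (2.30, 1.38 to 4.05). Il34, a ligand of the receptor encoded by Csf1r, had 713 and 454 (0.637, 0.528 to 0.771). In excitatory neuron-like nuclei 7 were measured, 1 higher and 0 lower, beside 6.14% and 7.09% of all genes. That was Kit, with 8.92 and 14.3 CPM (1.61, 1.32 to 1.96).

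The genes whose pattern over 13 classes was most like each member were found by the Pearson correlation of log2(CPM + 1), with both libraries together. The classes share 2 libraries, and these values are descriptions. They were Wwtr1 (0.967), Nxn (0.953) and Yap1 (0.938) for Pdgfd, and Sh3d21 (0.940), Rarres2 (0.940) and Myl9 (0.907) for Pdgfrb. For Pdgfra they were Adam12 (0.890), Sema3d (0.859) and Pcdhgc3 (0.838), and for Pdgfb Myl12b (0.944), Hprt (0.919) and Cysltr1 (0.898). Pdgfa was most like Spice1 (0.881), Ccdc181 and Smim1, and Pdgfc most like Pfkfb2 (0.864), Zfp523 and Fuom. Among the members themselves the highest values were 0.492 for Pdgfa with Pdgfc and 0.455 for Pdgfd with Pdgfrb.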

How the data were processed

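Nuclei of whole brain were sequenced on the 10x Genomics platform. The deposited matrices hold raw UMI counts per gene and barcode, which the authors made with Cell Ranger 5.0.0 and a pre-mRNA reference (mm10), so intron reads count. Whether counting used strand is not given in the sources used here, and Pdgfa, Pdgfc, Pdgfd and Pdgfra each overlap a gene of the opposite strand.

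The libraries held 11469 and 15986 barcodes and 45511469 and 68423922 UMIs. Nuclei with under 500 genes (326 and 0) or over 5% mitochondrial UMIs (107 and 318) and Scrublet doublets (695 and 1625) were removed. Both libraries were clustered together (Seurat 5.3.0, R 4.3.3, 30 principal components, resolution 0.8) without the 6 members, and classes were named from marker lists. UMIs were summed per class and library (Python 3.11.15, scipy 1.17.1), with exact Poisson intervals of levels, conditional binomial intervals of ratios, and a limit of 3 counts where none was found. Thinning to 1000 UMIs left out 484 ShamRT-28d and 0 WBRT-28d nuclei. Free RNA was estimated from 8 neuron or oligodendrocyte genes. Interval coverage was tested on simulated data. Alternatives were doublets kept, other gene, mitochondrial and resolution settings, a per-nucleus marker gate, median scaling, free RNA subtracted and thinned shares.

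The members and gene lists were chosen with earlier results of these data known. Named genes were the members, the 3 genes most like each by correlation over classes, and, of each pathway list, the 2 with most UMIs and any past the fold in a member's leading class, up to 4.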

Additional observations from a re-analysis of the deposited data

Results flagged for a closer look

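An unnamed cluster led by Slc47a1 and Bnc2, outside the classes compared above, held 30 ShamRT-28d and 67 WBRT-28d nuclei and carried Pdgfd at 483 and 678 CPM. The WBRT-28d to ShamRT-28d ratio was 1.41 (1.04 to 1.93, counting error only). It was flagged by a rule that kept only members in unnamed clusters whose ratio interval lay above 1. That interval is therefore no support for a difference. These nuclei include the 76 of the unnamed Slc47a1 and Adamtsl3 cluster given above, so the 2 results are not independent. With 1 library per group this difference was not tested.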

How the results depend on the processing

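Of the ratios of members in their leading classes, only that of Pdgfrb in mural-like nuclei was past the fold. It stayed under 1 in all 10 alternatives. Ratios nearer 1 crossed it under some alternatives. Pdgfa in excitatory neuron-like nuclei ran from 0.944 to 1.11 and Pdgfd in endothelial-like nuclei from 0.899 to 1.06, and Pdgfc in choroid plexus-like nuclei also crossed 1. With doublets kept, Pdgfb in endothelial-like nuclei of WBRT-28d stood at 171 CPM, Pdgfd at 1047 in ShamRT-28d and 941 in WBRT-28d (ratio 0.899), Pdgfra in OPC-like nuclei of WBRT-28d at 697, and Pdgfrb in mural-like nuclei at 1407 and 759. With the per-nucleus marker gate, Pdgfc in excitatory neuron-like nuclei of WBRT-28d stood at 33.1 CPM, Pdgfra in OPC-like nuclei of WBRT-28d at 783, and Pdgfrb in mural-like nuclei at 1880 and 1186 (ratio 0.631). The gate gave the same class to 3041 of the 8039 excitatory neuron-like, 638 of the 1115 OPC-like and 157 of the 478 mural-like nuclei. Of the mural-like nuclei 243 were left without a class. Ratios of thinned shares were 0.945 for Pdgfc in excitatory neuron-like, 0.786 for Pdgfra in OPC-like and 0.714 for Pdgfrb in mural-like nuclei. The Pdgfc ratio was 0.623 with at least 1000 genes per nucleus and 0.604 with free RNA subtracted. Chosen after seeing the data, the pericyte clusters gave 0.608 for Pdgfrb. Over all alternatives Pdgfrb ranged from 0.472 to 0.714, Pdgfra from 0.677 to 0.786, Pdgfb in endothelial-like nuclei from 1.26 to 1.72, Pdgfa in choroid plexus-like nuclei from 0.772 to 0.899, and Pdgfc there from 0.923 to 1.28. The cause of these moves was not tested. COP-like nuclei formed no class at resolution 0.4 or with doublets kept. No paired analysis was possible because each group has 1 library. Depth limits every class with few nuclei.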
